A study of Homo sapiens with 5 samples.

Results

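Exactly 1 protein-coding or lncRNA gene had its start or end within 1000 bp of the summit of 689 of the 2272 FOXO3A peaks in U-937 cells (30.3%, with an exact 95% binomial interval of 28.4 to 32.3 that covers counting error only, as do all intervals below). These single-gene boundary peaks were chosen by position alone, on chromosomes 1 to 22 and X. Another 513 peaks lay within 1000 bp of boundaries of 2 or more genes, and 1070 lay near no boundary. Together the 689 lay at 684 genes. The rule used the outer boundaries of each gene, so another gene's internal start can still be nearer, which was so for 21 of 559 peaks at a gene start (3.76%, 2.34 to 5.69).

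The peaks come from CUT&Tag, in which an antibody (here to FOXO3A) tethers a Tn5 transposase that cuts and tags the DNA around its target. U-937 is an established human line with monocytic features, which the labels class as acute myeloid leukemia cells, with no genetic change or treatment given. U-937 had 2 libraries and the comparison line THP-1, also a human monocytic leukemia line, had 3. All 5 used the same FOXO3A antibody, and no control library was used here, so that signal from the antibody and from open chromatin cannot be told apart. Replicate 1 of U-937 held all 2272 peaks and replicate 2 held 0, so no value below has a replicate check, and there is no test between conditions. The number of reads behind the peaks is unknown. The series holds 3554 peaks in all. Of 39 monocyte and granulocyte genes, 0 had a single-gene boundary peak and 1 had any boundary peak. Over all protein-coding genes these shares were 3.00% and 7.04%, and the exact upper limit for 0 of 39 is 9.03%. Peaks do not measure expression, so the cell type on the label could not be checked.

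FOXO3A is a forkhead transcription factor that binds DNA through a winged-helix domain and favours sequences of the form TGTTTAC. Growth factor signals act through PI3K and AKT, which phosphorylates FOXO3A so that 14-3-3 proteins hold it in the cytoplasm. When AKT is quiet, FOXO3A enters the nucleus and can turn on genes of cell cycle arrest, apoptosis, autophagy and antioxidant defence. At an active protein-coding gene, the region just upstream of the transcription start is open chromatin where many factors bind.

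The first 6 sequences show the promoters of the strongest start peaks whose summit lay inside the RefSeq promoter sequence (250 bases before to 50 after the start, GRCh38.p14). In order of fold they are CACTIN, PPP2R1A, the lncRNA gene LOC107986764, JUN, PSMD1 and the lncRNA gene MALAT1. They are printed 5′ to 3′ in the direction of transcription, with CCAAT boxes (the letters CCAAT, on either strand, known as the site of NF-Y) and GC boxes (the letters GGGCGG, on either strand, known as the site of SP and KLF factors) in capitals. None of these 6 promoters held TGTTTAC on either strand, and CACTIN held a CCAAT box but no GC box. Their positions were chr19:3626741-3627040 on the minus strand for CACTIN, chr7:7271154-7271453 on the plus strand for LOC107986764, chr19:52189802-52190101 on the plus strand for PPP2R1A, chr1:58783998-58784297 on the minus strand for JUN, chr2:231056617-231056916 on the plus strand for PSMD1 and chr11:65497488-65497787 on the plus strand for MALAT1.
CACTIN: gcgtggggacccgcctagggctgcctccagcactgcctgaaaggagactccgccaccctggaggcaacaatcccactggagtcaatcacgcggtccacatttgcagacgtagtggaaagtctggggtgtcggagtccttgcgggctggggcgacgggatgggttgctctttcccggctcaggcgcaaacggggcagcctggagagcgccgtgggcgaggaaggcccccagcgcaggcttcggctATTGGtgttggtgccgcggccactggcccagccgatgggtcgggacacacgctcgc
PPP2R1A: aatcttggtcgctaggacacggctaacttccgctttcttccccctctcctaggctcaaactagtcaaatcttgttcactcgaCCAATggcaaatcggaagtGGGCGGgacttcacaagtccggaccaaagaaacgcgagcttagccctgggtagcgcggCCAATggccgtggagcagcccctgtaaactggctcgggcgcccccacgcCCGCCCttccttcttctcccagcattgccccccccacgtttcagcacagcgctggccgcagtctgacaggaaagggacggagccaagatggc
LOC107986764: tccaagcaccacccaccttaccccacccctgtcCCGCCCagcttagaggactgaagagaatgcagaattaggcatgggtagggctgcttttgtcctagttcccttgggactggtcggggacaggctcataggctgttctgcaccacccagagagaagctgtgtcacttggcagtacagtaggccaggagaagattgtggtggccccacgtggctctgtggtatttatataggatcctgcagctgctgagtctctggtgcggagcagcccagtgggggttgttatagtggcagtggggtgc
JUN: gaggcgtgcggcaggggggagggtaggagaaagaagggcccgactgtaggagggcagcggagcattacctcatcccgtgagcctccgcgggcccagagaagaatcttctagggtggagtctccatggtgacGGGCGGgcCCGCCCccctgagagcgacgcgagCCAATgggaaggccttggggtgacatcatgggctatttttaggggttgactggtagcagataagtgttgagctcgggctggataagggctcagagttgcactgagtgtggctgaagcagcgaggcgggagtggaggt
PSMD1: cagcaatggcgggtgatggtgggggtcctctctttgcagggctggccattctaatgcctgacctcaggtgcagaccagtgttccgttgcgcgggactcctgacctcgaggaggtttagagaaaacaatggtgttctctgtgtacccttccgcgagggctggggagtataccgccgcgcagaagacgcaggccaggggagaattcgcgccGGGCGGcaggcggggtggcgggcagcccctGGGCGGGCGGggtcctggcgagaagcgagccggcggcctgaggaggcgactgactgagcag
MALAT1: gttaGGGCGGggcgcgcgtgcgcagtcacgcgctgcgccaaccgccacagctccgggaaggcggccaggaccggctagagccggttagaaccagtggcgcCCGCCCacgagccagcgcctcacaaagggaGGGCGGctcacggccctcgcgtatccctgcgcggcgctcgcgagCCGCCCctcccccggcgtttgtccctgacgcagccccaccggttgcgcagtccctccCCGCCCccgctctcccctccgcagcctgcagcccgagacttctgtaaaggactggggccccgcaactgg

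The next 3 promoters are the strongest start peaks whose promoter did hold the forkhead motif, which alone is in capitals here. The summit lay inside the sequence for HBP1 and ZBTB5 and upstream of it for CRY1. They lay at chr7:107168753-107169052 on the plus strand for HBP1, chr9:37465401-37465700 on the minus strand for ZBTB5 and chr12:107093500-107093799 on the minus strand for CRY1.
HBP1: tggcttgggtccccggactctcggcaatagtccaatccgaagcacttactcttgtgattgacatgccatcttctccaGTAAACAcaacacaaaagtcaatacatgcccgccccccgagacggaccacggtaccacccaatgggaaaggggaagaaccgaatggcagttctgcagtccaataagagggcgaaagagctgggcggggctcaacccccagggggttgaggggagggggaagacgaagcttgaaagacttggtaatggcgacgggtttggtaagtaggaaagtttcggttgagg
ZBTB5: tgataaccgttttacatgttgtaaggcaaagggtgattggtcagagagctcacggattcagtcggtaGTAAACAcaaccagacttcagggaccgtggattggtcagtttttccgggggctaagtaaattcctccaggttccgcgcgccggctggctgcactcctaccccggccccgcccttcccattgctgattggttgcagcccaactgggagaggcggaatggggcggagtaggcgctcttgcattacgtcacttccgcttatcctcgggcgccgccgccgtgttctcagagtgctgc
CRY1: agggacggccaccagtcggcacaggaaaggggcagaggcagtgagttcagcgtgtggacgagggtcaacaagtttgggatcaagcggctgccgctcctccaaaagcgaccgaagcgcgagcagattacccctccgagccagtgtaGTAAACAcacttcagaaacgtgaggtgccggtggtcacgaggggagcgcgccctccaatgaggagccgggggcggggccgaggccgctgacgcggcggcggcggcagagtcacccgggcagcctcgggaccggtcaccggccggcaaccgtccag

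Single-gene boundary peaks lay at gene starts far more than at gene ends. The strand of the gene was known for 599 of the 689 peaks. Of these, 559 (93.3%, interval 91.0 to 95.2) had their summit nearest to the start and 40 (6.68%, 4.81 to 8.98) nearest to the end. The gene of the other 90 peaks had no strand in the tables used, 30 of them on chromosome 8, and their side is left unnamed. Protein-coding genes had 502 of 525 peaks at the start (95.6%, 93.5 to 97.2), and lncRNA genes had 57 of 74 (77.0%, 65.8 to 86.0). In 4 groups of about equal size ranked by fold enrichment, from weakest to strongest, the start share was 88.6% (82.4 to 93.2), 96.1% (91.6 to 98.5), 94.7% (89.8 to 97.7) and 93.9% (88.8 to 97.2).

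Summits gathered just upstream of the start. Of the 559 start peaks, 383 (68.5%, 64.5 to 72.3) had the summit upstream, 175 (31.3%, 27.5 to 35.3) downstream and 1 on the start itself. The median position was -140 bp (quartiles -229 and 54, negative meaning upstream), and the median distance in either direction was 191 bp. The bin from -200 to -100 bp held 143 peaks and the bin from -300 to -200 bp held 105. Between -100 bp and the start there were 56, fewer than in either of these bins, followed by 54 and 48 in the 2 bins of 100 bp downstream. In all, 248 summits (44.4%, 40.2 to 48.6) lay from -300 to -100 bp. Beyond 500 bp in either direction there were 49 start peaks, and for 13 of these another listed RefSeq start of the same or another gene lay within 300 bp.

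**Figure D1:**
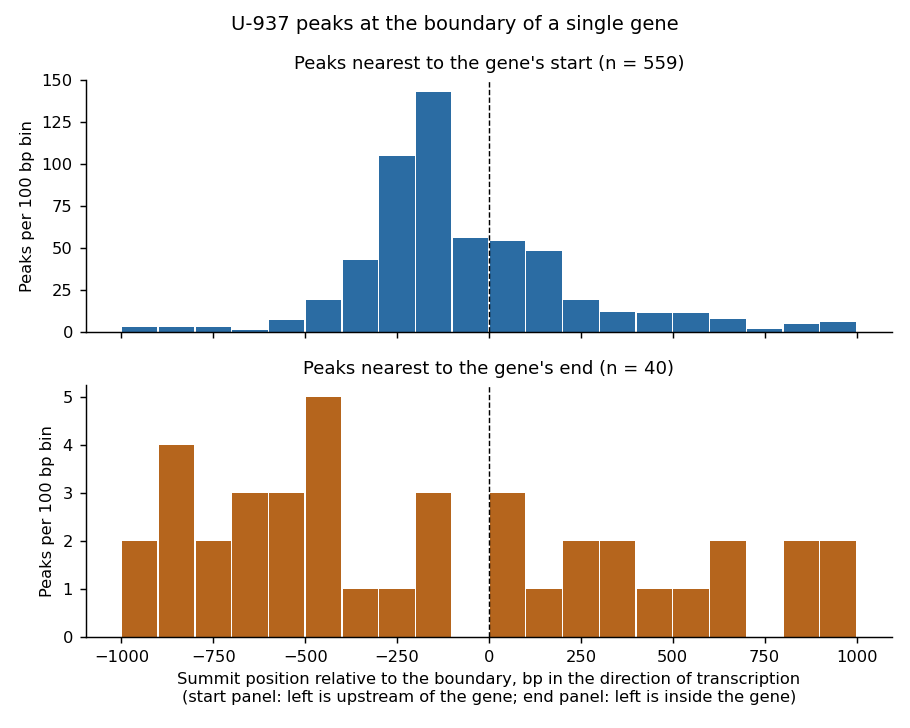
Number of peaks per 100 bp bin (y axis) against the position of the summit relative to the gene's start (upper panel, 559 peaks) or end (lower panel, 40 peaks), in bp in the direction of transcription. The start panel has its highest bin at -200 to -100 bp with 143 peaks, and the end panel has no bin above 5.

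End peaks were spread over the window. Their median distance to the boundary was 514 bp (quartiles 302 and 780), and 10 of 40 lay within 300 bp, against 425 of 559 start peaks (76.0%, 72.3 to 79.5). Inside the gene lay 24 of the end peaks (60%, 43.3 to 75.1), and 16 lay beyond it. A RefSeq start of any listed gene was within 1000 bp of 4 of the 40. These were the peaks at H1-2, PCNA-AS1, LOC124903573 and LOC105371452, with the start of H1-2 itself, PCNA, ABHD2 and MSTO1 respectively. The median distance from an end peak to the nearest listed start was 11297 bp.

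**Figure D2:**
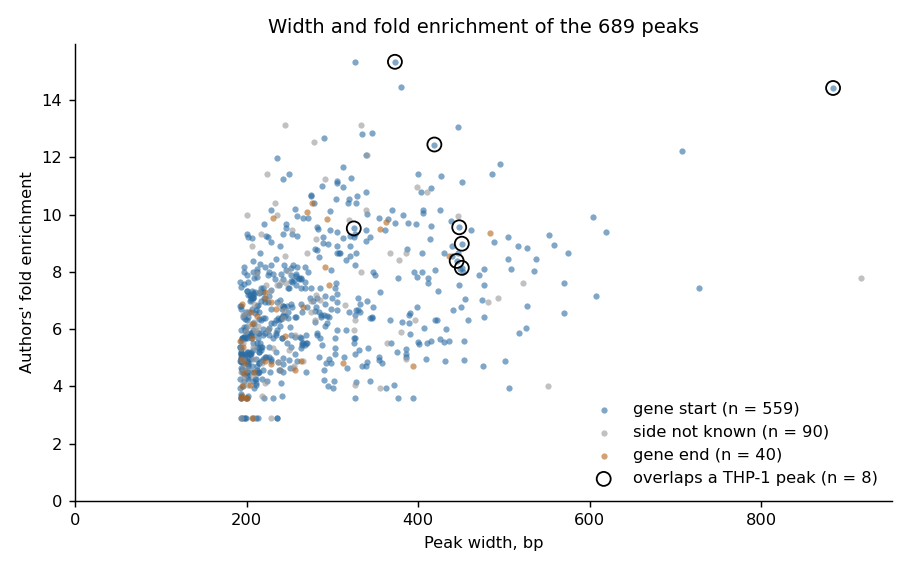
Authors' fold enrichment (y axis) against peak width in bp (x axis) for the 689 single-gene boundary peaks, coloured by the side of the gene, with rings around the 8 that overlap a THP-1 peak. The widths have a median of 248 bp and a minimum of 192 bp, and all 8 ringed peaks are at least 325 bp wide with a fold above 8.

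The authors' fold enrichment, a linear ratio of each peak over a background that is not stated, had a median of 6.45 among the 689 peaks (quartiles 5.11 and 7.996, range 2.89 to 15.3). The median was 6.65 among peaks near 2 or more genes and 5.69 among peaks near no boundary. Start peaks had a median of 6.50 (order-statistic 95% interval 6.30 to 6.70) and end peaks 5.73 (4.80 to 6.88). These intervals overlap. Start peaks with the summit upstream had 6.65 (6.41 to 6.93) and those downstream 6.03 (5.69 to 6.50), and these intervals overlap as well. Start peaks of protein-coding genes had 6.58 (6.40 to 6.82) and those of lncRNA genes 5.597 (5.20 to 6.60). A fold of at least 10 was reached by 56 peaks, of which 44 lay at a start and 2 at an end. Only 295 distinct fold values occurred among the 689 peaks, so many ties stand in the ranks.

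Peak width had a median of 248 bp (quartiles 209 and 327, range 192 to 917). Start peaks had a median of 252 bp and end peaks 222 bp. Across the 689 peaks fold and width had a Spearman correlation of 0.44 and a Pearson correlation of 0.38, and both come from the same reads of 1 library. Fold and distance to the boundary had correlations of 0.055 and 0.013. The widest peaks were at FBRS (917 bp), CIC (884 bp), the MYC-network gene MXD1 (728 bp), ZNF335 (708 bp) and COQ10B (619 bp). At the narrow end, ANKMY2, BCKDHB, HNRNPA0, LOC105371573 and POLR3GL had the minimum of 192 bp. Just inside the window lay the peaks at SESN3 (1000 bp, fold 4.48), LOC124902244 (997 bp, fold 7.02) and RAP2A (993 bp, fold 7.99). Just outside it lay those nearest to S100B (1018 bp, fold 4.95), FNDC3A (1024 bp, fold 4.92) and YWHAZ (1029 bp, fold 4.72).

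The start peaks with the highest fold were at ELL, EEPD1, CACTIN and CIC. ELL, a transcription elongation factor gene, had a fold of 15.3 with the summit 343 bp upstream (chr19:18522209-18522581). EEPD1, which encodes a nuclease-family protein, also had 15.3 (chr7:36152770-36153095, 352 bp upstream). CACTIN, a splicing factor gene, had 14.5 (chr19:3626833-3627212, 226 bp upstream). The transcriptional repressor gene CIC had 14.4 in a peak of 884 bp whose summit lay 360 bp downstream (chr19:42268303-42269186). CIC had a -log10 q of 42.4, the highest of the 689 peaks.

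Next came PPP2R1A, the scaffold subunit of the phosphatase PP2A (fold 13.04, chr19:52189682-52190127), whose summit lay 106 bp upstream, within the sequence printed above. PCNX3 followed with 12.9 (chr11:65615333-65615678), the lncRNA gene LOC107986764 with 12.8 (chr7:7271229-7271563) and NAPA, a gene of membrane fusion, with 12.7 (chr19:47515196-47515485). HDGFL2 had 12.4 (chr19:4471746-4472164), and ZNF335 had 12.2 in a peak of 708 bp (chr20:45971925-45972632). JUN, a subunit of the AP-1 transcription factor, had 12.1 with the summit 100 bp upstream (chr1:58784034-58784372). PSMD1, a subunit of the proteasome cap, had 11.99 (chr2:231056635-231056869, 167 bp upstream). CNOT3, of the CCR4-NOT deadenylase, had 11.8 (chr19:54137090-54137584), the nuclear lncRNA gene MALAT1 had 11.7 (chr11:65497395-65497706, 174 bp upstream) and the histone H4 methyltransferase gene KMT5C had 11.4 (chr19:55339416-55339901). Chromosome 19 held 8 of these 15, and 93 of all 689 single-gene boundary peaks. Upstream of the start lay 12 of the 15 summits, beside 68.5% of all 559 start peaks.

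End peaks were led by 2 lncRNA genes. LINC00656 had a fold of 10.4 with the summit 715 bp inside its end (chr20:23125666-23125941), and LOC105374542 had 10.1 (chr4:26288490-26288759, 538 bp inside). TADA3, a subunit of histone acetyltransferase complexes, had 9.87 (chr3:9780043-9780273, 200 bp inside). CITED4, which encodes a protein that binds CBP and p300, had 9.83 with the summit 85 bp past its end (chr1:40860841-40861134). HHIPL2 had 9.74 (chr1:222521518-222521880, 647 bp past the end). The list went on with LOC124903573 (9.50), SDR42E2 (9.35) and LOC101927949 (8.56). Among known regulators, the repair gene XPC had 6.78 with the summit 442 bp past its end, and the repressor gene ZEB2 had 6.59 at 927 bp past its end.

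Among lncRNA genes, 89 of 17904 had a single-gene boundary peak (0.497%), against 595 of 19821 protein-coding genes (3.00%). After LOC107986764 and MALAT1 came LINC01003 (fold 11.3), 124 bp upstream of its start, and the small nucleolar RNA host gene SNHG29 (fold 10.2), 211 bp upstream. LOC105372509 (fold 13.1) and LINC02018 (fold 9.99) had no known strand. Protein-coding genes of unknown strand with strong peaks were SPAG4 (13.1), the chromatin protein gene HMGB2 (12.5), the splicing factor gene RBM39 (12.1) and IMPA2 (11.4).

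The rule that only 1 gene may have a boundary in the window limits which genes can be counted. Of 10627 protein-coding genes of known strand with no other gene's boundary within 1000 bp of their start, 497 had a peak (4.68%). Where another boundary did lie within 1000 bp of the start, 24 of 5186 did (0.463%). Genes with a peak spanned a median of 30.1 kb, against 24.5 kb for all protein-coding genes. Starts carried a peak in 499 of 15813 protein-coding genes of known strand (3.16%) and ends in 23 (0.145%).

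Only 5 genes had 2 single-gene boundary peaks each. CALR, an endoplasmic reticulum chaperone gene, had peaks 146 bp (fold 8.89) and 727 bp (fold 5.95) upstream of its start. MAD2L1BP, which encodes a silencer of the spindle checkpoint, had one 167 bp upstream (7.004) and one 587 bp downstream (7.08). A listed start of GTPBP2 was nearer to the first of these, at 109 bp. MYO9A had both downstream, at 260 bp (8.24) and 891 bp (5.70), and a listed start of SENP8 lay 63 bp from the stronger one. RPS9, a ribosomal protein gene, was the one gene with a peak at each side, 27 bp upstream of the start (5.97) and 645 bp past the end (5.77). SARAF on chromosome 8, a regulator of calcium entry, had 8.56 and 7.95 at 74 and 691 bp from its higher-coordinate boundary. Otherwise the peaks were far apart, with a median spacing of 1267404 bp between neighbours and 8 neighbouring pairs within 10 kb.

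Chromosome 19 carried the most peaks for its genes. A single-gene boundary peak lay at 87 of its 1410 protein-coding genes (6.17%, 4.97 to 7.56), against 3.00% over all chromosomes. The lowest share was on chromosome 22, with 5 of 439 (1.14%, 0.371 to 2.64), followed by chromosome 11 with 21 of 1297 (1.62%, 1.00 to 2.46). On chromosome 1 the count was 75 of 2049 (3.66%, 2.89 to 4.57). Chromosome 19 peaks had a median fold of 7.42 (6.82 to 8.03) and a median width of 303 bp (275 to 327), against 6.40 (6.11 to 6.58) and 242 bp (236 to 252) on the other chromosomes. Copy number in U-937 was not measured here, and its part in these values was not tested.

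**Figure D3:**
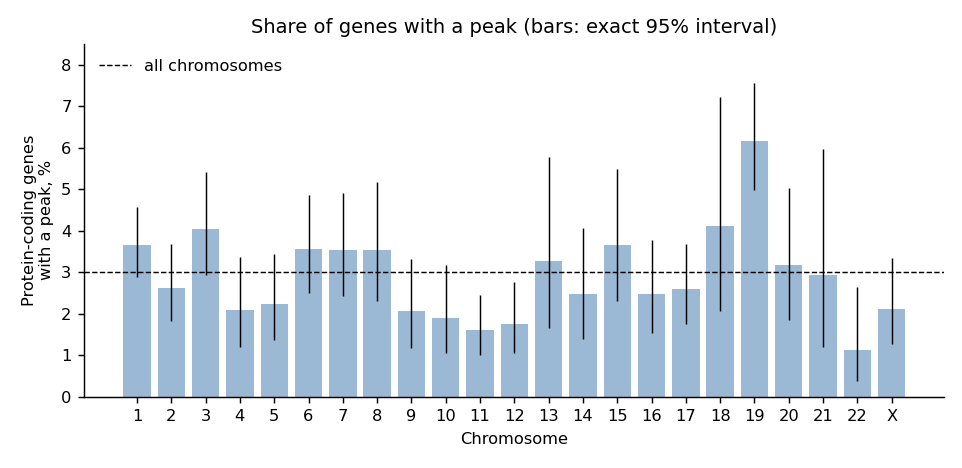
Share of protein-coding genes with a single-gene boundary peak (y axis, percent) by chromosome (x axis), with exact 95% binomial intervals and a dashed line at the 3.00% of all chromosomes. Chromosome 19 stands highest at 6.17% and chromosome 22 lowest at 1.14%.

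Few of the peaks were shared with THP-1. A THP-1 peak overlapped 8 of the 689 by at least 1 bp (1.16%, 0.503 to 2.27), against 4 of the 513 peaks near 2 or more genes and 13 of the 1070 near no boundary. All 8 were at a gene start, as were 93.3% of all single-gene boundary peaks of known strand. They were at ELL, CIC, HDGFL2, SIVA1, PACS2, RAB8A, ATP8B3 and STK35. The peak at PACS2 lay 431 bp from its start and 204 bp from a listed start of BRF1, with a pseudogene boundary also in the window. The apoptosis gene SIVA1 had a fold of 9.55, PACS2, a gene of membrane traffic, 9.52, the small GTPase gene RAB8A 8.98, the lipid flippase gene ATP8B3 8.38 and the kinase gene STK35 8.14. Their median width was 446.5 bp, against 247 bp for the other 681, and their median fold was 9.53 against 6.41. The part of width in the overlap was not tested. In the THP-1 list the -log10 q of these peaks ranged from 2.39 at PACS2 to 4.70 at HDGFL2. The deposited THP-1 list names its peaks in another form than the U-937 list. It also holds 245 peaks on sequences outside the named chromosomes, where the U-937 list has 0, and 948 of its 1282 peaks lie on chromosomes 1 to 22 and X. Whether both lists were called with the same settings is unknown, so the count of shared peaks describes these 2 lists, and folds are not compared between them.

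Gene lists were read against the 3.00% of all protein-coding genes with a single-gene boundary peak. With no limit on the number of genes in the window, any boundary peak in U-937 lay at 1395 of the 19821 (7.04%). Of 32 lists, 25 had at least 1 gene with a peak. AKT and FOXO regulators had 7 of 45 (15.6%, 6.49 to 29.5), all at the start. They included PPP2R1A (13.04), the nuclear export receptor gene XPO1, which carries FOXO out of the nucleus (10.9), the kinase gene AKT2 (9.25) and the 14-3-3 genes YWHAG (8.17) and YWHAQ (6.21). The AKT phosphatase gene PHLPP1 (5.69) and GSK3A (5.17), a kinase that AKT inhibits, made up the rest. Genes known as FOXO targets had 2 of 48 (4.17%, 0.509 to 14.3). These were the pseudokinase gene TRIB1 (fold 5.95, side not known) and the stress-response gene SESN3 (fold 4.48, at the 1000 bp edge of the window). With any boundary peak the targets also had 2 of 48, beside the 7.04% of all protein-coding genes. At -log10 q of at least 5, with 1.61% over all protein-coding genes, the regulators had 4 and the targets 0.

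Among genes of RNA processing and protein synthesis, 4 lists had a share above 10%. Pre-mRNA splicing had 10 of 72 (13.9%, 6.87 to 24.1), among them RBM39 (12.1), HNRNPC (9.70), PTBP1 (8.56) and SRSF10 (7.99), with SF3B1, a core factor of branch point recognition, at 7.87. Cytosolic ribosomal proteins had 10 of 79 (12.7%, 6.24 to 22.05), among them RPL21 (6.82), RPS23 (6.60) and RPS19 (6.41). Translation factors had 5 of 47 (10.6%, 3.55 to 23.1), with EIF5A (9.87) and EIF1AX (7.42) highest. Aminoacyl-tRNA synthetases, which charge tRNAs, had 4 of 37 (10.8%, 3.03 to 25.4), led by LARS2 (7.996) and MARS2 (5.78). With only peaks of -log10 q of at least 5, where the share over all protein-coding genes was 1.61%, ribosomal proteins had 3 and tRNA synthetases 1, while splicing had 7 and translation factors 5.

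Nuclear pore and transport genes had 5 of 51 (9.80%, 3.26 to 21.4), with NUP85 (9.31) and SEH1L (7.79) of the pore itself beside XPO1. DNA repair and damage response had 7 of 73 (9.59%, 3.94 to 18.8), led by MDC1 (8.66), a mediator of the response to DNA breaks, and the base excision glycosylase gene OGG1 (7.17). Cell cycle and mitosis had 7 of 84 (8.33%, 3.42 to 16.4), led by the kinetochore gene SPC24 (9.45), the centromeric histone gene CENPA (8.91), CDK4 (6.93) and the phosphatase gene CDC25A (6.88). Chaperones and stress response had 5 of 64 (7.81%, 2.59 to 17.3, an interval that contains the 3.00%), led by PDIA4 (10.98), the mitochondrial HSP70 gene HSPA9 (10.8), CALR and HSPA1B (8.04). At -log10 q of at least 5, nuclear pore and transport had 3, DNA repair 4, cell cycle 4 and chaperones 5.

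The remaining lists all had an interval that contained the 3.00%. Among genes often mutated in AML, 3 of 36 had a peak, namely NPM1 (8.41), ASXL2 (5.51) and SF3B1. Myeloid transcription factors had 4 of 61, JUN (12.1), STAT3 (7.42), ZEB2 and LYL1 (6.01). Vesicle traffic had 6 of 82, apoptosis 3 of 43, glycolysis 2 of 29, antioxidant defence 2 of 36, ubiquitin ligase and E2 genes 4 of 73, and RNA polymerase II, Mediator and elongation 5 of 94. Mitochondrial ribosomal proteins had 4 of 76, oxidative phosphorylation 4 of 76, inflammation and NF-kB 2 of 40, chromatin regulators 5 of 103, replication-dependent histones 3 of 65, autophagy and lysosome 2 of 55 and the proteasome 1 of 40. The strongest peaks of these lists after ELL, JUN and PSMD1 were at KDM4B (10.7), a histone demethylase gene, TRIM28 (9.80), a corepressor gene, SIVA1 (9.55), the histone gene H2BC3 (9.50) and ATP5MC1 (9.45), a subunit of the ATP synthase.

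In 7 lists no gene carried a peak. Monocyte and granulocyte genes had 0 of 39 (exact upper limit 9.03%) and cholesterol and lipid synthesis 0 of 44 (8.04%). T and B lymphocyte, hepatocyte and neuronal genes each had 0 of 25 (13.7%). Erythroid genes had 0 of 19 (17.6%) and olfactory receptors 0 of 40 (8.81%). At these sizes none of the 7 can be told from the 3.00% of all protein-coding genes. The order of the lists depended on the single-gene rule. With any boundary peak, pre-mRNA splicing had 21 of 72, chaperones 18 of 64, aminoacyl-tRNA synthetases 10 of 37 and vesicle traffic 18 of 82. AKT and FOXO regulators had 9 of 45 and cytosolic ribosomal proteins 15 of 79, against 7.04% of all protein-coding genes.

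**Figure D4:**
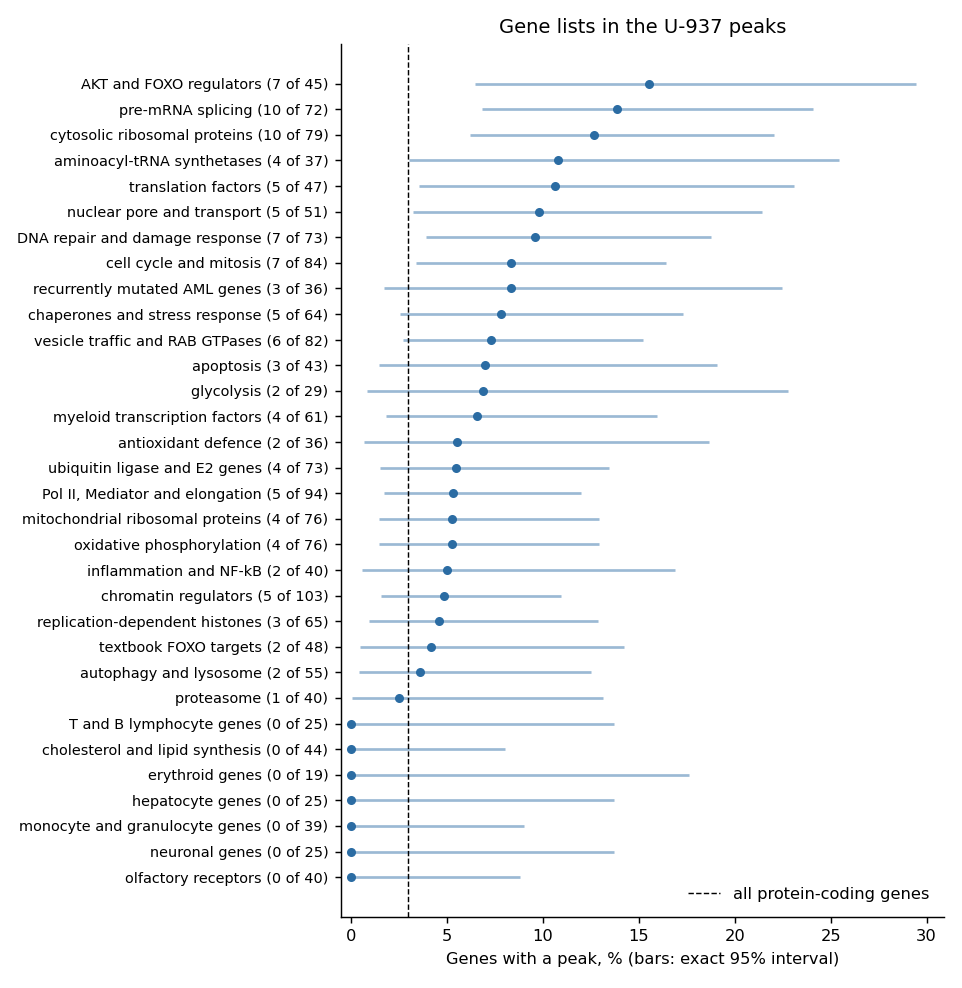
Share of each gene list with a single-gene boundary peak (x axis, percent, with exact 95% binomial intervals) for 32 lists (y axis, with the count of genes), and a dashed line at the 3.00% of all protein-coding genes. AKT and FOXO regulators, splicing and ribosomal proteins stand highest at 15.6, 13.9 and 12.7%, and 7 lists stand at 0. With any boundary peak in place of single-gene ones the order differs.

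The promoters of the genes with a start peak held CCAAT and GC boxes more often than promoters at large. Of 454 protein-coding promoters at the boundary of a gene with a start peak, 227 held CCAAT (50.0%, 45.3 to 54.7), against 37.1% of all 13792 protein-coding promoters. GGGCGG was in 334 (73.6%, 69.3 to 77.6), against 58.5%. The ETS motif CCGGAAG was in 19.6% (16.0 to 23.6) against 14.6%, and the half-site TGACGT of the cAMP response element in 15.6% (12.4 to 19.3) against 9.93%. The TATA motif TATAAA was in 6.17% (4.14 to 8.79) against 10.0%, and the AP-1 motif TGANTCA in 2.86% (1.53 to 4.84) against 5.78%. The single-gene rule favours genes with no other gene's boundary near the start, while the 13792 promoters were not limited to such genes. The part of this rule in the motif differences was not tested.

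Promoters with a peak were also richer in CpG, with a median of 25 CG in 300 bases (quartiles 20 and 32) against 22 (9 and 32), and had a median GC content of 64.3% against 62.7%. Protein-coding promoters with at least 20 CG were also compared. Within this cut the 2 sets were still not matched, with medians of 28 CG and 67.0% GC with a peak against 30 CG and 69.0% GC in all. The part of this difference in the motif shares was not tested. In these promoters GGGCGG was at 78.9% (74.2 to 83.0) with a peak against 82.3% in all. CCGGAAG was at 21.1% (16.98 to 25.8) against 20.6%. CCAAT was at 47.1% (41.8 to 52.5) against 34.3%, and TGACGT at 16.6% (12.8 to 20.9) against 12.5%. TATAAA turned to 4.57% (2.64 to 7.32) against 3.65%, and TGANTCA was at 2.29% (0.992 to 4.45) against 2.89%. Among the genes with a start peak, CCAAT was in 55.5% (48.8 to 62.1) of promoters with a fold above the median and 44.5% (37.9 to 51.2) of the rest, and these intervals overlap. CCAAT matches had a median position of -105 bp in promoters with a peak and -94 bp in all.

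The forkhead motif TGTTTAC was in 7 of the 454 protein-coding promoters with a start peak (1.54%, 0.622 to 3.15), against 2.53% of all. With at least 20 CG it was in 3 of 350 (0.857%, 0.177 to 2.48) against 1.61%. The core TGTTTA was in 4.63% (2.89 to 6.98) against 8.85%, and the insulin response element TGTTTTG in 3.08% (1.70 to 5.12) against 3.65%. With at least 20 CG the core was in 2.86% (1.38 to 5.19) against 4.30%, and the insulin response element turned to 2.86% (1.38 to 5.19) against 1.82%. Adding 57 lncRNA promoters brought the count of TGTTTAC to 9 of 511 (1.76%, 0.808 to 3.32), against 3.40% of all 24778 promoters of both gene kinds. A match in 300 bases is a description and not a bound site, and 302 of the 559 start peaks (54.0%) had their summit inside that stretch.

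The 9 promoters with TGTTTAC included HBP1, which encodes an HMG-box repressor of cell cycle genes. Its peak had a fold of 11.3 with the summit 121 bp upstream, and the motif printed above began 173 bases upstream of the start, with its centre 49 bp from the summit. ZBTB5, a zinc finger repressor gene, had a fold of 7.79 and its motif 45 bp from the summit. At ZNF699 (fold 5.51) the distance was 48 bp and at the lncRNA gene LOC124904691 (fold 4.85) it was 64 bp. At CRY1, a repressor of the circadian clock (fold 7.09), the motif centre lay 174 bp from the summit. The other 4 were RIF1 (194 bp), UHRF2 (221 bp), LINC02288 (309 bp) and SUCO (818 bp). In 5 of the 9 the motif centre therefore lay more than 100 bp from the summit.

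**Figure D5:**
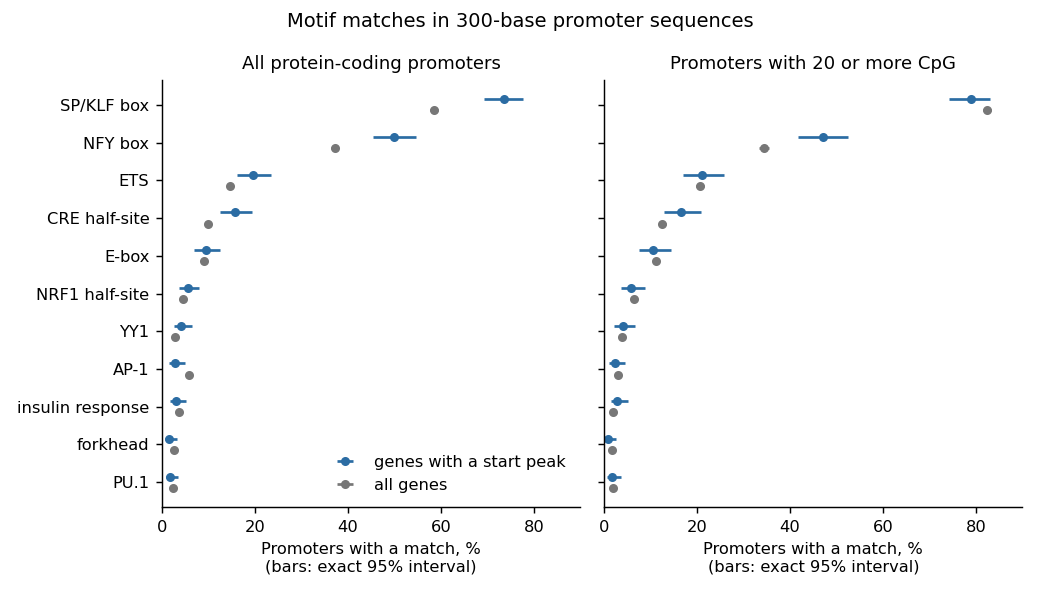
Share of 300-base promoter sequences with a motif match (x axis, percent, with exact 95% binomial intervals) for 11 motifs (y axis), in protein-coding genes with a start peak (blue) and in all protein-coding genes, which include them (grey). The left panel has all promoters and the right panel those with 20 or more CpG. The NFY box (CCAAT) stands at 50.0 against 37.1% on the left and 47.1 against 34.3% on the right, and the forkhead motif is at 1.54 against 2.53% on the left.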

How the data were processed

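The authors deposited 1 narrowPeak list per library, with no header and not pooled. Bowtie2, Picard and the build hg38 are named per the submitters' processing notes. What caller, settings and background made the peaks is not given in the sources used here. Each deposited peak has a score, a fold (a linear ratio), 2 columns of -log10 values (the p-value, then the q-value) and a summit. For replicate 2 of either line, and replicate 3 of THP-1, the list was empty and said so.

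The summit was the list's start plus 1 plus its summit offset. Genes came from the RefSeq table of GRCh38.p14 (59792 genes, of which 718 with coordinates out of order and 113 mitochondrial or on no named chromosome were left out). The 37725 protein-coding and lncRNA genes on chromosomes 1 to 22 and X were used. Strand came from 35116 RefSeq promoter sequences and was known for 27197 genes. Where both ends of a gene lay in the window (4 peaks), the nearer counted. Overlaps used bedtools 2.31.1 and at least 1 bp, and shares have exact (Clopper-Pearson) intervals (scipy 1.17.1), which cover counting error only. Peaks are not replicates, and no test was made.

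Motifs were searched on both strands in 1 promoter per gene, the one at the gene's boundary. They were TGTTTAC for forkhead factors, whose core TGTTTA it contains, TGTTTTG for the insulin response element, CCGGAAG for ETS factors, CCAAT for NF-Y, GGGCGG for SP and KLF factors, TGACGT for the half-site of the cAMP response element, TGANTCA for AP-1, TATAAA for the TATA box, CACGTG for the E-box, GCGCATGC for NRF1, AAGATGGCG for YY1 and GAGGAAGT for PU.1. Motifs of ZNF143, CTCF, E2F, STAT and RFX and the full sites of NRF1 and the cAMP response element were searched but are not reported.

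The peaks, the 32 gene lists (1675 genes, all found in the table) and the motifs were chosen with earlier results of these data known. The genes named were the 15 strongest start and 8 strongest end peaks, the 8 strongest at lncRNA genes, the extremes of width and distance, peaks shared with THP-1, genes with 2 peaks and up to 4 genes per list by fold. Other genes were chosen after their values were seen, and 1 gene that the rule names is not reported here. On simulated data, 300 of 300 planted peaks were classed as planted, among 37725 genes. They lay near a gene's start, near its end or just outside the window. Those near a boundary were assigned to the right gene, side and distance, and those outside to no gene. All were planted at genes with no other gene's boundary nearby, so crowded sites were not tried. Alternatives covered the threshold, window, gene kinds, summit, overlap and motif letters.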

Additional observations from a re-analysis of the deposited data

How the results depend on the processing

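With only peaks of -log10 q of at least 5, 362 peaks remained (33.7% of that list) at 320 protein-coding genes, with a median width of 280.5 bp and a median fold of 7.99, as the threshold itself removes weak peaks. Counting only protein-coding boundaries gave 819 peaks, a share of 36.0% of the list, since a neighbouring lncRNA no longer excludes a peak. The start share was then 96.5%. This setting also leaves out peaks at lncRNA genes alone. In the main setting 77.0% of lncRNA peaks of known strand lay at the start, against 95.6% of protein-coding ones. The start share was 96.5% with a 500 bp window and 90.7% with a 2000 bp window, and the median distance was 181 and 211 bp. TGTTTA in place of TGTTTAC was in 5.09% of the 511 promoters of both gene kinds with a start peak, against 12.5% of all 24778. The peak midpoint, and boundaries of all kinds of gene (an alternative chosen after seeing the data), kept each of the summary values recomputed (counts, shares, medians) within its interval or within 1.5 times the count. An overlap of at least 50% of the narrower peak gave 8 peaks shared with THP-1, as before. Of the 32 gene lists, 14 changed their count by more than 1.5 times with -log10 q of at least 5, 5 with the 500 bp window, 7 with the 2000 bp window and 7 with protein-coding boundaries only. Known FOXO targets had 0 of 48 at -log10 q of at least 5 and 1 in each of the other windows. Leaving out U-937 replicate 2, which held no peaks, changed nothing, and without replicate 1 no value remained. No paired analysis was possible because only 1 library of each line held peaks. Depth is unknown, so a gene without a peak cannot be called unbound.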

Other observations

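Some single-gene boundary peaks also lay within 1000 bp of a small RNA gene, which the choice of peaks did not consider. Boundaries of 1 or more genes of other kinds lay within that distance of 28 of the 689 peaks (4.06%, exact interval 2.72 to 5.82). A tRNA gene was near 6 of them, at TIA1 (fold 9.17), RAB11A (7.94), PLEKHG2 (6.82), ILF2 (6.41), HMGN4 (5.03) and LOC124904691 (4.85). Here the peak cannot be assigned to either gene from its position alone. A miRNA gene was near 8, among them TRIM13 (fold 10.96) with MIR3613, the dynamin gene DNM2 (9.28) with MIR638 and NPM1 with MIR3912. SNHG29 was the 1 gene with a snoRNA, SNORD49B. The 28 also included 6 near a pseudogene and 6 near a transcribed pseudogene. These shares were not computed for the other U-937 peaks, so whether they differ from the rest of the list is unknown.

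Families read from gene symbols, a choice made after seeing the data, were set beside the 3.00% of all protein-coding genes. Genes named ZNF had 16 of 517 with a peak (3.09%, 1.78 to 4.98), and solute carriers had 5 of 386 (1.30%, 0.422 to 3.00). Olfactory receptor genes had 0 of 389 (exact upper limit 0.944%). Kinesins had 2 of 39 (5.13%, 0.627 to 17.3), as did genes named RBM. Ubiquitin-specific proteases had 5 of 76 (6.58%, 2.17 to 14.7), led by USP1 (fold 11.1), a regulator of DNA crosslink repair, and USP11 (7.55).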
